A study of Mus musculus with 10 samples.

Results

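Hemidesmosomes are the plaques that fasten basal keratinocytes to the basement membrane of the skin. Their integrin, built from Itga6 and Itgb4, spans the basal cell membrane together with the transmembrane collagen Col17a1. The plakins Dst and Plec join both to the keratin filaments inside the cell. Outside the cell the integrin holds laminin-332, the laminin that keratinocytes secrete, with Lama3 and Lamb3 among its chains. A second laminin receptor, built on Itga3, and the tetraspanin Cd151, which partners laminin-binding integrins, complete the set. Loss of several of these components causes blistering of the skin in humans and mice.

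The genes described here were a listed set of 9: Itga6, Itgb4, Itga3, Col17a1, Dst, Plec, Lama3, Lamb3 and Cd151. Probe sets were found by gene symbol, and 8 of the 9 had one, among 19505 named genes; Plec was not among the named probe sets and was not analysed here. All 8 had a single probe set and passed the filter on low levels, which left 13653 genes for the tests.

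Whole back skin of C57BL/6J mice, 9 weeks old at the start, was profiled on 10 arrays. All 8 operated samples carried a silicone expander under the back skin. It was filled with PBS, a salt solution, in 4 expanded samples and left unfilled in 4 non-expanded samples. Each arm had 1 array at each of days 0, 7, 14 and 21 after full injection, so expanded skin was already stretched at day 0. Skin of mice without surgery was measured once in anagen, the growth stage of the hair cycle, and once in telogen, its resting stage. As the labels do not state if RNA of 1 mouse or of several went on each array, the p-values measure only the spread between these arrays.

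Levels are given as the deposited log2 signal, with array medians from 6.27 to 6.45 and a median of 5.46 over the background probe sets. The lowest value of any of the 8 genes was 8.22, well above that median. The mean level of the basal epidermis list ranged from 10.40 to 12.47 over the 10 arrays, so keratinocyte RNA was present on each. Whole skin also held skeletal muscle genes, with a list mean of 10.89 to 13.63 on expanded and 13.11 to 14.50 on non-expanded arrays. Hair shaft and inner root sheath genes averaged 15.69 on the anagen array and 6.09 on the telogen array. On the expanded array of day 7 the hair list mean was 11.29, against 4.66 to 5.90 on the other expanded arrays. The non-expanded array of day 7 had the highest list means of dermal fibroblast genes (16.03) and macrophage genes (12.71). Results that rest on day 7 are therefore also given without it.

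The bases upstream of the members' transcription starts are shown because the genes split into those higher and those lower in anagen, described further on. They come from RefSeq (GRCm38.p6, the assembly called mm10), run 5′ to 3′ on the gene's strand and end at the base before the start. Upstream sequence was at hand for 5 of the 8 genes, from 1 or 2 starts each, and the start with the most matches is shown for each gene, chosen after the matches were counted. Capitals mark matches on either strand to AP-1 (TGANTCA), TEAD (GGAATG), AP-2 (GCCNNNGGC) or the GC box (GGGCGG), and in Cd151 the AP-2 and GC box matches overlap. The 2 genes higher in anagen come first, followed by 3 that were lower.
Itga3, chr11:95076715-95076964, minus strand: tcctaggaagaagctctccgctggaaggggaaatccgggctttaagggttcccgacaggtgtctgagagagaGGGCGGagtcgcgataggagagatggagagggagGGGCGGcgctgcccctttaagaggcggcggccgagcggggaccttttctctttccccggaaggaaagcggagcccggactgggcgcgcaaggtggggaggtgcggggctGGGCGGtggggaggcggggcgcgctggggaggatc
Cd151, chr7:141467112-141467361, plus strand: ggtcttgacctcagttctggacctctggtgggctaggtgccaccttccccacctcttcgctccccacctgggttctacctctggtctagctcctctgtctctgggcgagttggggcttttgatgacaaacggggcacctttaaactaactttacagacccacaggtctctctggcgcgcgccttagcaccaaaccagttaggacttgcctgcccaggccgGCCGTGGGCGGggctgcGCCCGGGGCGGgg
Col17a1, chr19:47692043-47692292, minus strand: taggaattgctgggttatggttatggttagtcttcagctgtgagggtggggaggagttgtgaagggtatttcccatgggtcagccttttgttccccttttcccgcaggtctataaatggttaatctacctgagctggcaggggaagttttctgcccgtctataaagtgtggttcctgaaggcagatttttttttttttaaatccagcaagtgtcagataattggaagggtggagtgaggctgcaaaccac
Lamb3, chr1:193301993-193302242, plus strand: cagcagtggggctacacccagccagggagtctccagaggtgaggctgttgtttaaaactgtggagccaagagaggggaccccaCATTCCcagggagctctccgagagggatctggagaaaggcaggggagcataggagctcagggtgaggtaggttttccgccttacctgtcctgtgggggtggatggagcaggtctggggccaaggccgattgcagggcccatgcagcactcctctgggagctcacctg
Dst, chr1:34011345-34011594, plus strand: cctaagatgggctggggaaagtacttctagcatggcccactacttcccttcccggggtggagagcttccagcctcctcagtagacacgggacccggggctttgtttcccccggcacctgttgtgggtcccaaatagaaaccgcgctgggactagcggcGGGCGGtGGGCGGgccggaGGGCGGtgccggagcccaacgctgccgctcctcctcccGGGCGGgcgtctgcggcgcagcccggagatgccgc
The GC box stood in the windows of Itga3 (3 matches) and Cd151 (2 matches) but also in that of Dst (4 matches), which was lower in anagen. It was found in 32.7% of all 32851 upstream windows of this length in the table. At the other starts, not shown, Itga3 had 1 GC box and Cd151 and Dst had 0. The other Cd151 start had 1 AP-2 match, 211 bases upstream, and that of Lamb3 had no TEAD match. The Col17a1 window held none of the 4 motifs. The Lamb3 window held 1 TEAD match, 167 bases upstream of the start, a motif found in 12.6% of all windows. AP-1 and AP-2 matches occurred in 6.75% and 13.7% of all windows, and none of the shown windows held an AP-1 match. Among the 5 genes only Cd151 had AP-2 matches, with 2 in the window shown. A match is a description of the letters only, and which start was in use was not measured.

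Comparing expanded with non-expanded skin asks how stretch, beyond the presence of an expander, altered these genes. All 8 were higher on average in expanded skin, as were 52.5% of all genes tested, although Dst turned to -0.04 with quantile normalization and 6 of the 8 were lower relative to basal epidermis genes, a scale on which 5.6% of all genes were higher. The median log2 difference was 0.70, against 0.02 over all genes. Of the 8, Itgb4 and Col17a1 of the hemidesmosome differed most. In whole skin, more basal cells and more RNA per basal cell cannot be told apart. None passed an adjusted p of 0.05 (limma, Benjamini-Hochberg over 13653 genes), and neither did any other gene (lowest adjusted p = 0.221), while 659 genes were higher and 543 lower at an unadjusted p under 0.05. Of the 8, 5 had an unadjusted p under 0.05 and were higher, beside 4.83% of all genes. The lowest adjusted p among the 8 was 0.37.

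Among the receptors, Itgb4, the integrin chain that pairs with Itga6 alone (chromosome 11, 115974725 to 116008412, mm10), gave the largest difference. Itgb4 read 10.77, 10.25, 11.06 and 10.83 at days 0, 7, 14 and 21 in expanded skin, against 9.63, 9.76, 10.28 and 9.52 in non-expanded skin. On each day the expanded array was higher, and across days 3 of the 4 expanded arrays lay above every non-expanded one. The log2 difference was 0.93 ± 0.24 (SE; limma adjusted p = 0.37). Its partner Itga6, which can also pair with Itgb1 (chromosome 2, 71786886 to 71858427), read 14.21, 13.72, 14.50 and 14.29 in expanded skin, against 13.73, 13.64, 13.45 and 13.64 in non-expanded skin. Expanded skin was higher on each day, but by only 0.08 at day 7 and by 1.05 at day 14. The difference of Itga6 was 0.57 ± 0.24 (adjusted p = 0.58 in limma).

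Itga3, whose product pairs with Itgb1 to bind laminin-332 (chromosome 11, 95044475 to 95076844), read 9.08, 8.78, 9.87 and 9.29 in expanded skin, against 8.46, 8.47, 8.77 and 8.74 in non-expanded skin. Its arms did not overlap, although the lowest expanded value, 8.78, was barely above the highest non-expanded one, 8.77. The difference was 0.65 ± 0.23 (limma adjusted p = 0.517). The tetraspanin Cd151 (chromosome 7, 141467362 to 141471481) read 11.84, 11.65, 11.85 and 12.26 in expanded skin, against 10.55, 11.80, 10.48 and 11.74 in non-expanded skin. The non-expanded arrays fell into a low pair, at days 0 and 14, and a high pair, at days 7 and 21, while the expanded arrays all lay near the high pair. The macrophage list was also lower at days 0 and 14 in non-expanded skin, at 11.40, 12.71, 10.30 and 12.34. Elsewhere the 2 differed. The macrophage list was 7.91 on the anagen array, where Cd151 was 11.86, and 10.22 on the expanded array of day 21, where Cd151 was highest. The part of macrophages in the Cd151 values was not tested. Cd151 differed by 0.76 ± 0.32 (limma adjusted p = 0.567), and by 1.06 without day 7.

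Col17a1, the transmembrane collagen a target of autoantibodies in bullous pemphigoid (chromosome 19, 47646341 to 47692042), read 13.74, 13.39, 13.94 and 13.91 in expanded skin, against 12.89, 13.06, 13.30 and 12.42 in non-expanded skin. Every expanded array lay above every non-expanded array. The widest gap on a single day was 1.49 at day 21, where non-expanded skin was at its lowest. The difference was 0.83 ± 0.26 (95% interval 0.21 to 1.46; limma adjusted p = 0.467). Dst, whose epithelial form is the plakin of the hemidesmosome and whose other forms serve nerve and muscle (chromosome 1, 33907888 to 34308662), behaved differently. Dst read 10.64, 9.67, 10.50 and 11.36 in expanded skin, against 9.75, 10.99, 9.92 and 11.41 in non-expanded skin. The arms overlapped fully, with expanded skin higher on 2 of 4 days, and the difference was 0.02 ± 0.39 (95% interval -0.91 to 0.95; limma adjusted p = 0.993). The interval does not show that the arms were alike. At day 7 the difference of Dst was -1.32, and without that day it was 0.47. Its forms were not told apart by the single probe set.

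The laminin chains differed most at day 7. Lama3, the chain that engages the integrins, read 11.25, 11.83, 11.55 and 11.82 in expanded skin, against 11.13, 9.87, 11.20 and 11.18 in non-expanded skin. All expanded arrays lay above all non-expanded ones, by the narrow margin of 11.25 over 11.20. The difference was 0.77 ± 0.34 (limma adjusted p = 0.593), and was 0.37 without day 7, when the non-expanded array was far below the other 3. Lamb3, the laminin chain that joins Lama3 in the trimer (chromosome 1, 193294353 to 193343878), read 10.73, 10.09, 10.66 and 10.42 in expanded skin, against 10.20, 9.19, 10.45 and 9.71 in non-expanded skin. Both arms were lowest at day 7, and expanded skin was the higher on each day. The difference of Lamb3 was 0.59 ± 0.22 (limma adjusted p = 0.531), and 0.49 without day 7.

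**Figure D1:**
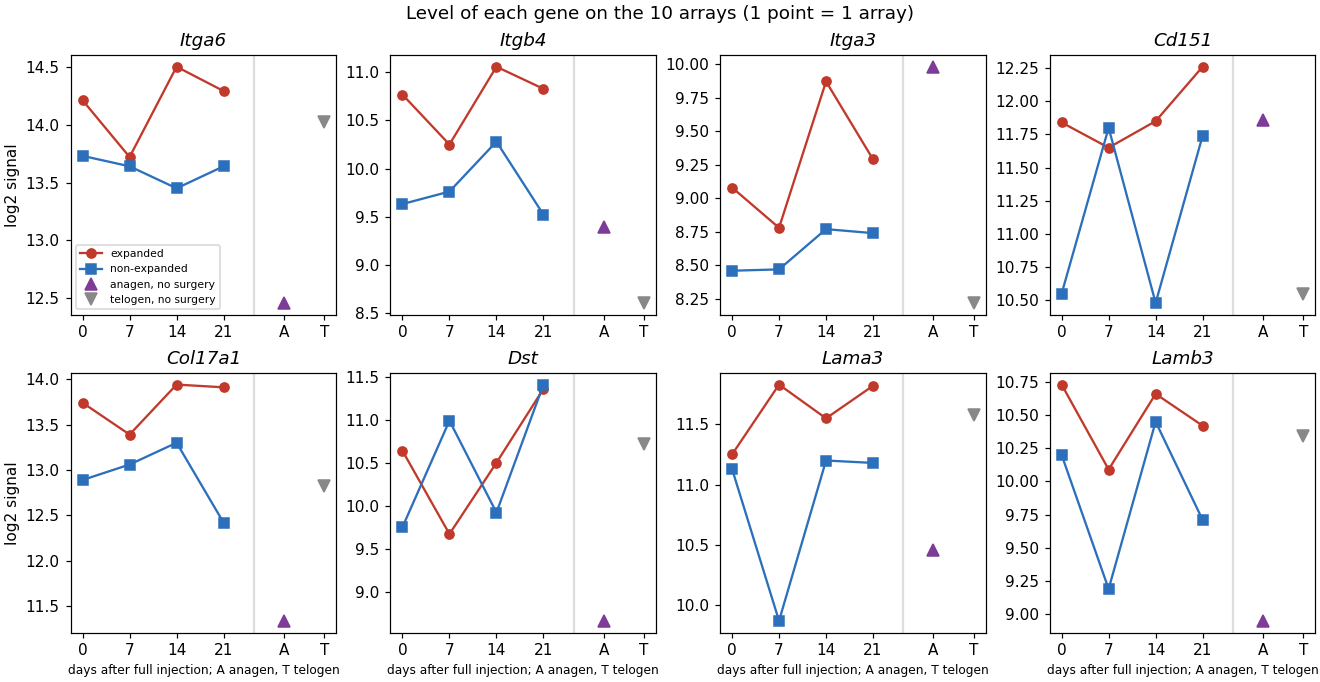
Log2 signal of each of the 8 genes (vertical axes, each with its own range) on the 10 arrays, by day after full injection for expanded (red) and non-expanded (blue) skin, with the anagen and telogen arrays at the right; 1 point is 1 array. Itga3, Col17a1 and Lama3 had all 4 expanded arrays above all 4 non-expanded arrays, while Dst had its arms interleaved.

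Counted over the genes, 6 of the 8 were higher in expanded skin on all 4 days, as were 9.18% of all genes tested. The exceptions were Cd151, higher on 3 days, and Dst, higher on 2. Complete separation of the arms was seen for 3 of the 8, Itga3, Col17a1 and Lama3, and for 2.97% of all genes tested. With 4 pairs of arrays, an exact sign-flip permutation test cannot give a two-sided p below 0.125, and 6 of the 8 genes reached that value. Without day 7, 8 of 8 were higher and the median difference was 0.74.

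The differences by day did not run in parallel with those of basal epidermis, suprabasal epidermis, or desmosome and adherens junction genes. At day 0 all 8 were higher in expanded skin, with a median of 0.74 and a range of 0.12 to 1.29, when 53.0% of all genes were higher. On that day the median was 0.05 for basal epidermis genes (8 of 14 higher), -0.14 for desmosome and adherens junction genes (7 of 20 higher) and -0.63 for suprabasal epidermis genes (3 of 17 higher). At day 7 the order was the opposite. The 8 genes had a median of 0.33, with 6 higher beside 46.3% of all genes, set against 1.43 for basal epidermis (12 of 14 higher), 1.62 for desmosomes and adherens junctions (20 of 20 higher) and 1.66 for suprabasal epidermis (15 of 17 higher). At day 14 the medians were 0.71, 0.55, 0.40 and 0.79 for the same 4 lists, and at day 21 they were 0.65, 1.34, 0.89 and 0.73. Of the 8 genes, 8 were higher at day 14 and 7 at day 21, beside 52.3% and 54.0% of all genes. Several other lists also had a larger median at day 0 than at day 7. The 2 medians were 0.54 and -0.35 for focal adhesion linkers and other integrins, and 0.83 and -1.13 for other basement membrane genes. For endothelium they were 0.92 and -1.05, and for dermal fibroblast genes 1.03 and -1.08. Each day had 1 array a side, so these are values without a test.

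**Figure D2:**
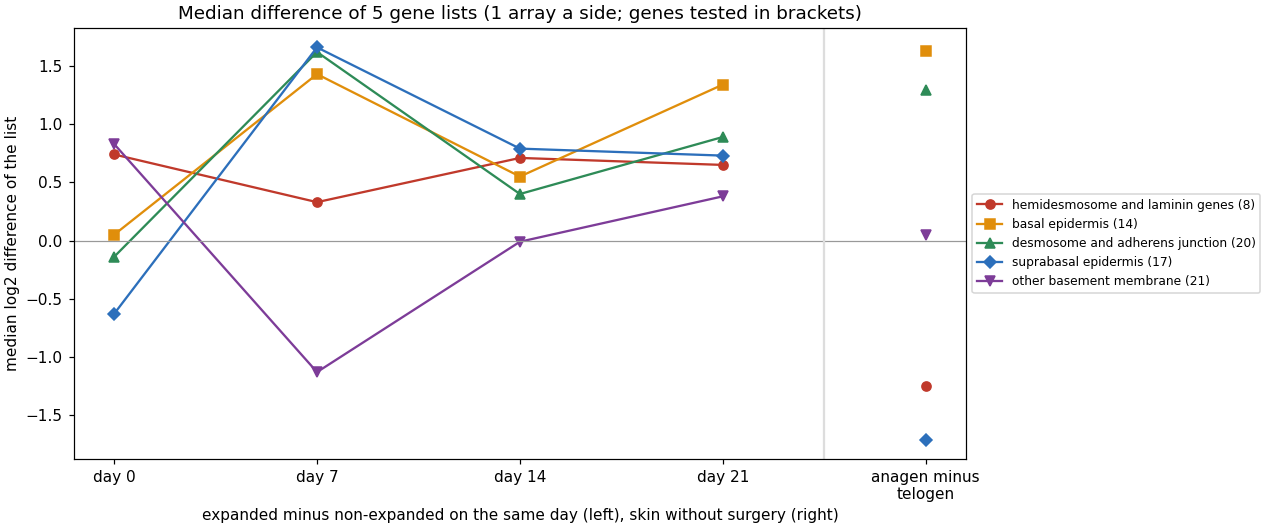
Median log2 difference of 5 gene lists between expanded and non-expanded skin on each day (left) and between anagen and telogen skin (right), with 1 array a side and no error. The hemidesmosome and laminin genes lay between 0.33 and 0.74 on the 4 days and at -1.25 in anagen, where basal epidermis genes lay at 1.63.

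Over the 4 days together, the basal epidermis list had a median of 0.66 (13 of 14 higher), close in size to the 0.70 of the 8 genes. Without day 7 the median was 0.52 for basal epidermis and 0.74 for the 8 genes. Basal cell genes with the smallest p were the growth factor receptor gene Fgfr3, at 1.49 ± 0.31, and the transcription factor gene Tfap2a, at 1.30 ± 0.32. When each array was shifted by the mean of that list, 2 of the 8 genes, Itgb4 and Col17a1, were still higher in expanded skin, and the median of the 8 became -0.08. That shift moved the median of all genes to -0.76 and left 5.6% of them higher. Desmosome and adherens junction genes, which join keratinocytes to each other, had a median of 0.65 with 20 of 20 higher, and 0.31 with 18 of 20 higher without day 7. Among them Jup, a linker at the desmosome, differed by 0.95 ± 0.25, the desmosomal membrane protein gene Perp by 0.94 ± 0.28, and Cdh1, which encodes E-cadherin, by 0.96 ± 0.34. None of these genes passed the adjusted threshold in limma.

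Other components of the basement membrane had a median of 0.10, with 13 of 21 genes tested higher and 8 lower, and this value rested on day 7. Without it the median was 0.51, with 15 of 21 higher. By day, 18 of 21 were higher at day 0 (median 0.83), 4 at day 7 (-1.13), 10 at day 14 (-0.01) and 14 at day 21 (0.38). Col7a1, of the anchoring fibrils, was not among the named probe sets and was not analysed here. The members with the smallest p were chains of type IV collagen that were lower in expanded skin, Col4a3 at -1.53 ± 0.39 and Col4a4 at -0.84 ± 0.34. Col4a3 lay close to the background median in expanded skin, at 5.73, 4.46, 5.20 and 6.82, against 6.44, 6.71, 7.73 and 7.47 in non-expanded skin. Col4a4 was also close to that median in expanded skin, at 6.03, 5.57, 5.77 and 6.03, against 5.70, 6.82, 7.23 and 7.01. Bcam, a receptor for another laminin, differed by 0.63 ± 0.29, and the laminin chain gene Lamc3 by 0.64 ± 0.32. Dermal fibroblast genes had medians of 1.03 at day 0 and -1.08 at day 7, and their part in these values was not tested.

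Focal adhesion linkers and other integrins of keratinocytes showed 12 of 18 genes higher, with a median of 0.17. The tetraspanin gene Cd9 differed by 0.63 ± 0.23 with all 4 days higher, Itgb1, the shared partner of Itga3 and Itga6, by 0.57 ± 0.31, Tspan14 by 0.63 ± 0.36 and Itga9 by 0.62 ± 0.36. None passed after adjustment, and a difference between the 8 genes and these lists was not tested.

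Markers of other cell types also differed between the arms, mostly in a way that changed with the day, and none of these genes passed after adjustment. Skeletal muscle genes had a median of -1.73 in the same comparison, with 19 of 22 lower, and -1.31 without day 7. Hair shaft and inner root sheath genes had a median of 1.31 (15 of 15 higher), which rested on day 7, at 7.31. Without that day their median was -0.27 with 11 of 15 lower, and at day 14 it was -1.61. Macrophage genes had a median of -0.52 (9 of 12 lower), but were higher for 9 of 12 at day 0 and 11 of 12 at day 14, and lower for 12 of 12 at days 7 and 21. Suprabasal epidermis genes had a median of 0.45 (15 of 17 higher), and 0.25 without day 7, and adipocyte genes had -0.22 (12 of 13 lower). Dermal fibroblast genes had a median of 0.19 (8 of 13 higher), and 0.66 without day 7. Medians were -0.01 for endothelium (7 of 15 higher; 0.30 without day 7), where Itga6 is also made, and 0.12 for Schwann cells (4 of 7 higher), which use Itga6, Itgb4 and Dst. Of the 11 Schwann cell genes on the array, 6 had a mean below the background median. The part of these cells in the differences of the 8 genes was not tested.

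Setting expanded skin against skin without surgery asks how stretched skin differed from intact skin. All 8 genes were again higher on average in expanded skin, with a median of 0.84 against 0.01 over all genes, of which 50.6% were higher. None of the 8 passed the threshold, beside 0.447% of all genes called higher and 0.0293% called lower. Itgb4 and Col17a1 came closest, at 1.74 ± 0.35 (limma adjusted p = 0.061) and 1.67 ± 0.42 (limma adjusted p = 0.0908). Both had all 4 expanded arrays above the anagen and telogen arrays, as did 14.0% of all genes. Itgb4 was at least 10.25 in expanded skin, against 9.39 in anagen and 8.60 in telogen, and Col17a1 at least 13.39, against 11.34 and 12.82. Itga6 differed by 0.94 ± 0.41, Dst by 0.85 ± 0.67, Lamb3 by 0.83 ± 0.45, Cd151 by 0.70 ± 0.49, Lama3 by 0.60 ± 0.45 and Itga3 by 0.16 ± 0.46. The choice of unoperated skin decided several of these values. Against anagen alone, Col17a1 (2.41, adjusted p = 0.00537) and Itga6 (1.72, adjusted p = 0.0133) passed in limma, so 2 of the 8 were called higher, beside 6.34% of all genes called higher and 7.21% called lower. Itga3 turned to -0.72 there. Against telogen alone Itga6, Lama3 and Lamb3 differed by only 0.16, 0.04 and 0.14 while Itgb4 differed by 2.13 and Col17a1 by 0.92. With a single array on one side, that array is assumed to vary like those of the other groups.

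Non-expanded skin was higher than skin without surgery for 5 of the 8 genes, beside 50.7% of all genes, and lower for 3, with a median of 0.31, and none passed (lowest adjusted p = 0.305 in limma; 0 of 13653 genes passed, while 1286 were higher and 858 lower at an unadjusted p under 0.05). Col17a1 differed by 0.84 ± 0.42, Dst by 0.83 ± 0.67 and Itgb4 by 0.80 ± 0.35. Itga3, at -0.49 ± 0.46, had the largest negative value of the 8. Against anagen alone 3 of the 8 passed in limma, Col17a1 (1.58, adjusted p = 0.0216) and Itga6 (1.16, adjusted p = 0.0432) higher and Itga3 (-1.37, adjusted p = 0.042) lower, beside 8.44% of all genes called higher and 10.9% called lower. Relative to basal epidermis genes the median of the 8 was 0.92 for expanded and 1.17 for non-expanded skin, each against skin without surgery, where 56.5% and 90.9% of all genes were higher. The basal epidermis list itself had a median of -0.24 in expanded skin against skin without surgery, with 6 of 14 genes higher. The 4 of its genes with the smallest p between the arms were Tfap2a (-0.51), Fgfr3 (0.03), Sfn (1.15) and Krt14 (2.34). Values on this scale therefore depend on which genes make up the list. The comparison of non-expanded skin shares the anagen and telogen arrays with that of expanded skin, so the 2 sets of values are not independent. By group mean, Itgb4 stood in the order expanded (10.73 ± 0.34, SD, n = 4), non-expanded (9.80 ± 0.34, SD, n = 4) and without surgery (8.99), and Col17a1 in the same order (13.75 ± 0.25, 12.92 ± 0.37 and 12.08). The Col17a1 value without surgery is the mean of 11.34 in anagen and 12.82 in telogen. Against telogen alone, non-expanded skin differed by only 0.09 for Col17a1, so its last step rested on the anagen array. For Lama3 skin without surgery (11.02) lay between expanded (11.61 ± 0.27) and non-expanded skin (10.85 ± 0.65), within the spread of the non-expanded arrays. It also lay between them for Itga3 (9.10, between 9.26 and 8.61) and Cd151 (11.20, between 11.90 and 11.14).

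**Figure D3:**
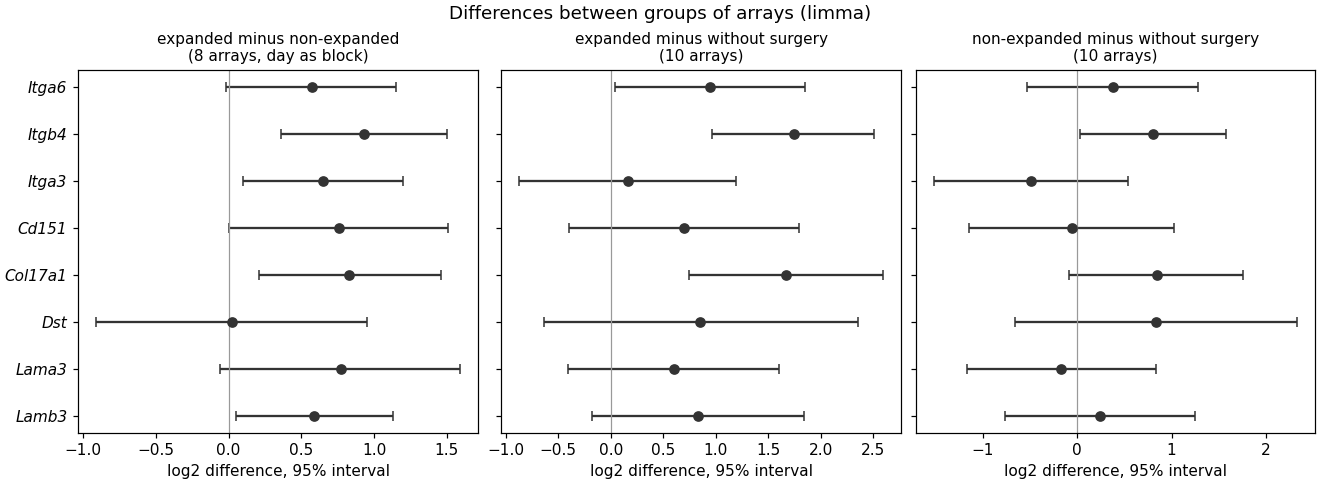
Log2 difference of each gene (points, with 95% limma intervals) for expanded minus non-expanded skin, expanded minus skin without surgery and non-expanded minus skin without surgery. Points of all 8 genes lie right of 0 in the first and second panels on the deposited scale (6 of 8 lie left of it in the first relative to basal epidermis, and Dst with quantile normalization), and the interval of Dst in the first spans -0.91 to 0.95.

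Anagen and telogen skin were compared with 1 array each and without a test. On the deposited scale the 8 genes split into those lower and those higher in anagen, while relative to basal epidermis genes all 8 were lower, as were 88.9% of all genes. Dst, Itga6, Col17a1, Lamb3 and Lama3 were at least 2-fold lower, by log2 differences of -2.06, -1.56, -1.49, -1.38 and -1.11, so 5 of the 8 were past that fold beside 20.4% of all genes. Itga3 and Cd151 were at least 2-fold higher, at 1.76 and 1.31, as were 23.5% of all genes, and Itgb4 was higher by 0.79. For 4 genes, Itga6, Col17a1, Dst and Lamb3, the anagen array was the lowest of all 10, which held for 25.3% of genes tested. Itga3 was highest on that array, at 9.98, above the 9.87 of expanded skin at day 14. For 6 of the 8 the highest of the 10 arrays was an expanded one, beside 23.3% of genes tested.

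Genes of the basal epidermis and of desmosomes and adherens junctions ran the other way on the anagen array. Basal epidermis genes had a median of 1.63 there (12 of 14 higher) and desmosome and adherens junction genes 1.29 (19 of 20 higher), while the 8 genes had a median of -1.25 (3 of 8 higher, beside 49.6% of all genes). Focal adhesion linkers and other integrins had a median of -0.00 (9 of 18 higher), and other basement membrane genes 0.05 (11 of 21 higher). Suprabasal epidermis genes were lower, with a median of -1.71 (6 of 17 higher), as were dermal fibroblast genes (-1.14), endothelium (-0.55) and skeletal muscle (-3.41). Hair shaft and inner root sheath genes stood far higher, with a median of 10.16, so the makeup of the 2 samples differed widely, and its part in these values was not tested. Scaling to the mean of the basal epidermis list moved every gene by -1.85, so any gene higher by less than that turned. Itga3 came to -0.09, Cd151 to -0.54 and Itgb4 to -1.06. The genes of that list did not rise alike in anagen. Of the 4 with the smallest p between the arms, Sfn was higher by 4.60, Fgfr3 by 2.97 and Tfap2a by 2.82, but the keratin gene Krt14 by 0.43. Whether the shift follows the content of basal cells was not tested. On the telogen array, Itgb4 (8.60) and Itga3 (8.22) were at their lowest of the 10 arrays. Itga6 and Lama3 in telogen, at 14.02 and 11.58, lay above all 4 non-expanded arrays.

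**Figure D4:**
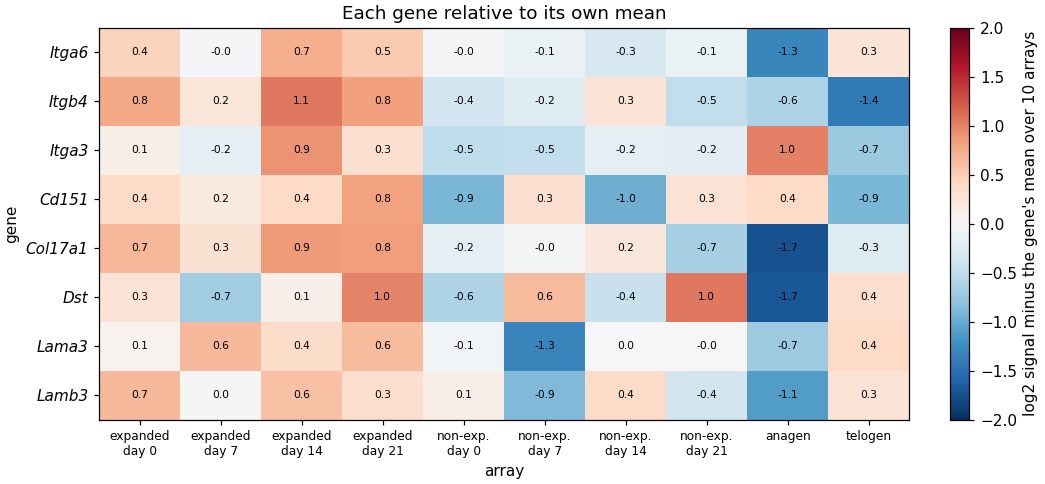
Log2 signal of each gene minus its mean over the 10 arrays (colour and printed value), for the expanded arrays by day, the non-expanded arrays by day, anagen and telogen. The anagen column is lowest for Itga6, Col17a1, Dst and Lamb3 and highest for Itga3, and the day 7 non-expanded array is the lowest for Lama3.

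Fitted as straight lines, the change from day 0 to day 21 in expanded skin ranged from -0.10 for Lamb3 to 0.89 for Dst, and in non-expanded skin from -0.35 for Col17a1 to 1.18 for Dst. None passed in either arm, where the smallest unadjusted p among the 8 was 0.307 and 0.189, both for Dst. No gene of the 13653 was called for either trend in limma, and at an unadjusted p under 0.05, 161 had a positive and 178 a negative slope in expanded skin, against 271 and 224 in non-expanded skin. The difference between the arms' trends was largest for Col17a1, at 0.66 ± 0.71 (unadjusted p = 0.378), where its expanded values stayed between 13.39 and 13.94 while the non-expanded value of day 21 was 12.42. Dst was lowest in expanded skin at day 7, when non-expanded skin was at 10.99, and were 11.36 in expanded and 11.41 in non-expanded skin at day 21. The skeletal muscle list was lowest on the expanded arrays of days 7 and 14 (10.89 and 11.24) and on the anagen array (11.10), and Dst was lowest on the anagen (8.66) and expanded day 7 (9.67) arrays. Dst was next lowest on the non-expanded arrays of days 0 and 14 (9.75 and 9.92), where the muscle list was at 13.11 and 13.96, and was 10.50 on the expanded array of day 14. The part of muscle in the Dst values was not tested.

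The genes whose pattern over the 10 arrays was most like the mean of the 8, each centred on its own mean, were Plpp1 and Popdc3, both with a Pearson r of 0.94. They were followed by Smoc2, Uchl1 and Klf4, each at 0.93. Next came Map1b, Hbegf, Cpne2, Camk2b and Klf6 at 0.92. Klf4 encodes a transcription factor of the skin barrier and Hbegf a ligand of the EGF receptor. These r values are a ranking over 10 arrays, of which the highest of many genes were taken. Single genes had other neighbours. Col17a1 was most like Itgbl1 and Ccn1, a matrix protein gene and target of YAP (0.95 each), and Itgb4 most like Eln, which encodes elastin, and Smurf1 (0.95 each). Itga3 was nearest to Taf13 (0.97) and Nop14 (0.95), and Cd151 to Bnip2 and Rptor (0.97 each). Lama3 was nearest to Palmd (0.91) and Kif5b (0.89), Lamb3 to Zbtb11os1 (0.97) and Fam177a2 (0.95), Dst to Hivep2 and Aldh1a1 (0.96 each) and Itga6 to Ocrl (0.94) and Cyp26b1 (0.93). No member was among the 2 nearest genes of another member.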

How the data were processed

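RNA from whole back skin was labelled with an Affymetrix WT PLUS kit, per the labels' protocols. The deposited values are log2 probe-set signals, 28846 on each of 10 arrays. The log base, background correction and normalization are not given in the sources used here, and log2 was read from the range of 1.87 to 19.88. Build mm10 is named in the submitters' processing notes. As 586 probe sets exceeded 16 on some array, the limit of a 16-bit scanner, the deposited log2 scale may be stretched.

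Symbols came from the platform annotation (19572 probe sets, 19505 genes), with the highest-mean probe set where a gene had several. Genes with a mean under the 30th percentile (4.86) were left out. Fits used limma 3.58.1 in R 4.3.3, with Benjamini-Hochberg adjustment over all genes tested; all tests were two-sided. Expanded skin was compared with non-expanded skin with the day as a block (3 residual degrees of freedom). All 10 arrays entered the comparisons with skin without surgery (7), and day trends left 4. The labels give both arms the same days, which pairs the arrays; the check over genes gave r of -0.133 (day 0), -0.171 (day 7), -0.104 (day 14) and 0.358 (day 21) between a day's 2 arrays, each less its arm's mean. The fits were tested on simulated data with changes far larger than the members' differences, which says nothing about power at the sizes reported. The number of arrays limits the precision.

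The members and lists were chosen with earlier results of these data known, and no set test was made. In other lists, genes are named from the 4 with the smallest p for expanded against non-expanded skin. Genes of like pattern were the 10 with the highest r with the members' mean and the 2 nearest to each member, leaving out predicted genes. Alternatives were other filters, quantile normalization, no block, arrays left out, either unoperated array alone, a moderated fit with trend, the mean of a gene's probe sets, and values relative to basal epidermis.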

Additional observations from a re-analysis of the deposited data

Results flagged for a closer look

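Lama3 at day 7 of non-expanded skin, at 9.87, lay far from the other 3 non-expanded arrays, which read 11.13, 11.20 and 11.18. Its gap to the nearest of them was 0.948 of the whole range of the 4, above Dixon's critical value for 4 samples. This was 1 flag among the 16 groups of 4 arrays examined, and chance flags about 1 group in 20. The same array had the lowest non-expanded value of Lamb3 (9.19) and, of the 10 arrays, the lowest list means of basal epidermis (10.40) and of desmosome and adherens junction genes (11.24) and the highest of dermal fibroblast and macrophage genes (16.03 and 12.71). The part of these cells in the Lama3 value was not tested.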

How the results depend on the processing

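Filters, the block, the eBayes setting and the probe-set rule cannot alter a log2 difference of the 8 genes. Under the settings that can, 264 of 312 recomputed values kept their sign, 48 changed it and 5 passed the threshold only there. The list medians without day 7 were added after seeing the data. For expanded against non-expanded skin, the fit without the day as a block called 2 genes in all and none of the 8, and quantile normalization turned Dst to -0.04. Relative to basal epidermis, 66 genes were called and the median of all genes was -0.76. There 2 of the 8 were higher and their median was -0.08, with Itga6 at -0.21, Itga3 at -0.13, Dst at -0.76, Lama3 at -0.01, Lamb3 at -0.19 and Cd151 at -0.02. For expanded skin against skin without surgery, the genes called were 33 with no filter on level, 8 relative to basal epidermis and 1850 against anagen alone. The members' median was 0.54 against telogen alone, with Dst at -0.18, and 1.43 against anagen alone, with Itga3 at -0.72. For non-expanded skin against skin without surgery, all 8 were higher relative to basal epidermis (median 1.17, Itga3 0.37, Lama3 0.69, Cd151 0.80), where the median of all genes was 0.87. Against telogen alone the median was -0.05, with Itga6 at -0.40, Itga3 at 0.39, Dst at -0.20, Lamb3 at -0.45 and Cd151 at 0.60. Against anagen alone it was 0.67, with Lama3 at 0.39 and 2645 genes called. Anagen minus telogen relative to basal epidermis was -0.09 for Itga3 and -0.54 for Cd151. Leaving out 1 day or array in turn, genes called ranged from 0 to 1 for expanded against non-expanded skin and from 5 to 86 for expanded skin against skin without surgery (8 without the expanded array of day 0, 43 without that of day 7 and 5 without that of day 14). For non-expanded skin against skin without surgery they ranged from 0 to 112, with 112 without the non-expanded array of day 14, and the members' median from 0.24 to 0.42. Single genes that reversed ranged from -0.27 to 0.47 for Dst between the arms, from -0.04 to 0.32 for Itga3 in expanded skin against skin without surgery, and, in non-expanded skin, from -0.28 to 0.16 for Cd151 and from -0.29 to 0.15 for Lama3. The members' median trend ranged from 0.27 to 0.82 in expanded skin (Lama3 -0.02 to 0.55, Lamb3 -0.28 to 0.50, Dst -0.22 to 2.53) and from 0.05 to 0.31 in non-expanded skin (Itgb4 -0.37 to 0.97, Lamb3 -0.36 to 0.79, Cd151 -0.10 to 1.00, Col17a1 -0.96 to 0.61). The median difference of trends ranged from -0.10 to 0.94 (Dst -0.88 to 1.90, Cd151 -0.64 to 1.01, Lama3 -1.97 to 0.50, Lamb3 -0.48 to 0.12, Itga3 -0.00 to 0.72, Itgb4 -0.54 to 1.24, Col17a1 -0.32 to 1.73). The causes of these changes were not tested. The mean of a gene's probe sets changed no member, since each had 1. Single arrays per day, whole skin and an unstated normalization limit these values.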
